A study of Mus musculus with 4 samples.

Results

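The genes described here are well known targets of the transcription factor p53 other than p21 (Cdkn1a): Mdm2, Bax, Ccng1, Trp53inp1, Sesn2, Phlda3, Gdf15, Btg2, Gtse1 and Zmat3. They were chosen by name, and every probe set whose platform annotation gives exactly 1 symbol, that of a listed gene, was taken. Of the 10 genes, 8 had such a probe set, 15 probe sets in all out of 45037 on the array. Bax and Gdf15 were not analysed here. The arrays held total RNA from mature liver of C57BL/6J mice, 2 taken 48 h after partial hepatectomy and 2 taken 48 h after a sham operation. Partial hepatectomy removes part of the liver, and the remnant regrows. No other treatment or allele is given in the labels for either group. The design text calls the arrays biological duplicates. The sources used here do not say how many animals contributed to each array. The p-values below rest on the spread among these 4 arrays, which may be partly technical.

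p53 is kept low in unstressed cells by Mdm2, a ubiquitin ligase that marks it for degradation and is itself a p53 target, so that the pair forms a feedback loop. When DNA damage or other stress stabilises p53, it raises transcription of genes that stop the cell cycle, favour cell death or limit metabolic and oxidative damage. Several of these genes also answer to other signals, such as growth factors, amino acid shortage or the cell cycle itself, and a change in 1 of them is therefore not a measure of p53.

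The clearest difference lay in Btg2, an antiproliferative gene of the BTG/TOB family that is also known as an early growth response gene. Its probe set 1416250_at rose after partial hepatectomy, and its other probe set and the single probe set of Gtse1 lay in the same direction without passing. Those of Mdm2, Ccng1, Trp53inp1, Sesn2, Phlda3 and Zmat3 did not pass in either direction. By limma with Benjamini-Hochberg adjustment, 1 of the 14 tested member probe sets was called at an adjusted p of 0.05, beside 3.39% of all 27022 probe sets tested (2.51% higher and 0.877% lower). The remaining member probe set, 1457929_at of Mdm2, was too dim to be tested. With each gene counted by its brightest tested probe set, 0 of the 8 member genes were called, beside 4.67% of all 12560 genes, of which 3.57% were higher and 1.09% lower (2 of the 8 had an unadjusted p under 0.05, beside 19.9% of all genes).

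**Figure D1:**
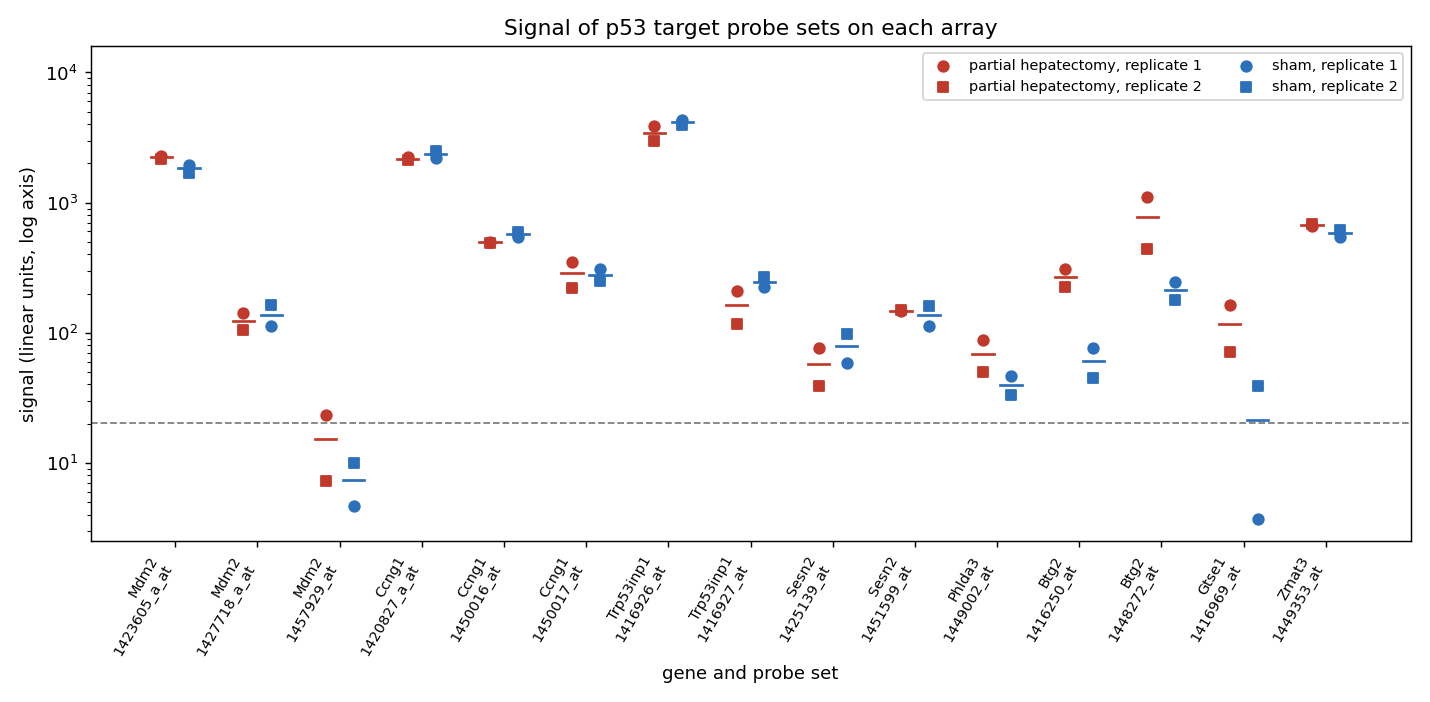
Signal of each member probe set on each array, on a log axis; circles and squares are replicates 1 and 2, short bars are group means, and the dashed line is the level of 20.4 below which the bacterial control probe sets lay. Both partial hepatectomy arrays sit above both sham arrays for Btg2, Gtse1, Phlda3, Zmat3 and Mdm2 1423605_a_at, as in 24.4% of all tested probe sets. They sit below for Trp53inp1 and Ccng1 1450016_at, as in 23.3%. The group means lie furthest apart for Btg2 and Gtse1.

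The upstream sequences of 3 genes are shown. They belong to the members with the largest differences, Btg2 and Gtse1, and to the feedback gene Mdm2. That of Mdm2 holds a match to the p53 half-site consensus. Each sequence gives the 250 bases before an annotated transcription start, from RefSeq on GRCm38.p6, read 5′ to 3′ on the strand of the gene. Another annotated start of Gtse1, with its window at chr15:85859696-85859945, is not shown. Capitals mark matches to the p53 half-site consensus, to the cyclic AMP response element TGACGTCA or to the CCAAT box (CCAAT or ATTGG). The Btg2 window lies at chr1:134079156-134079405 on the minus strand, the Gtse1 window at chr15:85859457-85859706 on the plus strand and the Mdm2 window at chr10:117710759-117711008 on the minus strand.
Btg2: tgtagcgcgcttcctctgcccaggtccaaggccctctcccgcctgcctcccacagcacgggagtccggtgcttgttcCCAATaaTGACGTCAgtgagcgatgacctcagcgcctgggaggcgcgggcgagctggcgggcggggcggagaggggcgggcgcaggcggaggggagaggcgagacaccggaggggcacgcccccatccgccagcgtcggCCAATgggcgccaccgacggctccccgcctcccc
Gtse1: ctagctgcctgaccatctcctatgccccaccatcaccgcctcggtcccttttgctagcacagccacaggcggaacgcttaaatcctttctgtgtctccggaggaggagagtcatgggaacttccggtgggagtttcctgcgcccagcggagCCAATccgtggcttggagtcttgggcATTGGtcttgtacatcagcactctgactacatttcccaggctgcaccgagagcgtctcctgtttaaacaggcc
Mdm2: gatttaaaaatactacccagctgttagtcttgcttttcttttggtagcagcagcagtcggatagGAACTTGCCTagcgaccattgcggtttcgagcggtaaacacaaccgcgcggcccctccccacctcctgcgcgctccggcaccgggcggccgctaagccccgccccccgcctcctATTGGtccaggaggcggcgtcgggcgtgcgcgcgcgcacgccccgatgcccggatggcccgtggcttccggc

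Members are counted below if any of their windows held a match, while the percentages are shares of windows. Upstream sequences were available here for 6 of the 8 members (Mdm2, Ccng1, Sesn2, Phlda3, Btg2 and Gtse1). A half-site match, which reads the same on both strands, stood in the windows of 2 of them, Mdm2 and Ccng1, starting 186 and 185 bases before the start, and in 7.13% of all 32851 windows. TGACGTCA, also palindromic and searched after the Btg2 sequence had been read, stood in the window of Btg2 alone among the 6, starting 166 bases before the start, and in 1.55% of all windows. A CCAAT box on either strand stood in the windows of 5 of the 6 members and in 33.8% of all windows; in the Btg2 window 1 box ends 2 bases before TGACGTCA, and the 2 do not overlap. The sequence TTTGAA or its complement TTCAAA, found in many promoters of late cell cycle genes, stood in none of the members' windows and in 16.0% of all windows. These matches describe letters and do not show binding; p53 sites of many targets lie outside such windows, and that of Mdm2 is known to lie in its first intron.

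One array stood apart. In the partial hepatectomy replicate 1, the summed signal of 7 adrenal cortex markers was 12423, against 206 in replicate 2 and 236 and 209.6 in the sham arrays. That of 5 adrenal medulla markers was 4057, against 37.7 in replicate 2 and 67.8 and 105 in the sham arrays, and that of 4 adipocyte markers was 2287, against 277, 150.0 and 66.7. Of the adrenal cortex markers 1 of 7 lay under 20.4 in replicate 1 and 4 of 7 in each other array; none of the adrenal medulla markers did in replicate 1, against all 5 in replicate 2 and 3 and 4 of 5 in the sham arrays. Of the 5 measured hepatocyte markers, none of which passed, the summed signal was 79660.2 and 73419 after partial hepatectomy and 85929 and 74585 after the sham operation. Of the 14 tested member probe sets, 12 (85.7%) were higher in replicate 1 than in replicate 2, beside 54.0% of all tested probe sets. Values without replicate 1 are given beside some of the results below, not all. A fit without it leaves a single array in its group, so its p-values and calls take no spread from that group. The part of these other tissues in the results was not tested. In whole tissue, a change in the number of cells of a type and a change in RNA per cell cannot be told apart.

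Btg2 encodes a partner of the deadenylase complex that shortens messenger RNA tails, and it slows passage from G1 to S phase in many cell types. Probe set 1416250_at had signals of 308 and 225 after partial hepatectomy, against 75.7 and 45.1 after the sham operation. The groups did not overlap, and the lower hepatectomy array stood well clear of the higher sham array. The group means were 267 ± 58.5 and 60.4 ± 21.6 (SD, n = 2 arrays each), and the probe set rose by 2.02 ± 0.34 in log2 fold change (SE; limma, adjusted p = 0.0182), on the scale of log2(signal + 8.57). The 95% interval ran from 2.37-fold to 6.92-fold. Without hepatectomy replicate 1, the array with adrenal transcripts, its log2 fold change was 1.80, and without sham replicate 2 it was 1.69. Such fits leave a single array in a group, so only the size of the change is given.

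The brighter Btg2 probe set, 1448272_at, had signals of 1111 and 439.6 after partial hepatectomy, against 247 and 179 after the sham operation. Here too both hepatectomy arrays were above both sham arrays, but they lay far apart from each other: their log2 difference was 1.32, beside a median of 0.273 over all tested probe sets. The log2 fold change was 1.69 ± 0.41 (SE; limma, adjusted p = 0.0708), so it did not pass. Without hepatectomy replicate 1 it was 1.03, and without hepatectomy replicate 2 it was 2.35. The mean of both probe sets passed (1.85 ± 0.34, adjusted p = 0.0391). Both therefore had intervals above 0, 1.69-fold to 6.19-fold for the brighter 1, and they differed in how far the hepatectomy arrays spread.

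Btg2 is often induced together with immediate early genes, which answer within minutes to growth factors and stress. Of 19 tested immediate early genes 1 rose, beside 4.67% of all genes called, and none fell; 12 were called without hepatectomy replicate 2 and 2 without hepatectomy replicate 1. Their median log2 fold change was 0.89, beside 0.02 over all genes. The gene that rose was Gadd45b, a stress-inducible regulator of MAP kinase signalling, with signals of 576 and 673 after partial hepatectomy and 91.1 and 104 after the sham operation (log2 fold change 2.57 ± 0.24, SE; adjusted p = 0.0015). The summed signal of all 22 measured immediate early genes was 40906 and 26631 after partial hepatectomy, against 27596 and 20749.8 after the sham operation. In this sum, which bright genes weigh most, hepatectomy replicate 1 stood above the other arrays, as it did for Btg2. Not every gene followed it: Gadd45b was higher in hepatectomy replicate 2. Dusp1, Gadd45g and Myc, named after their values were seen, were highest in sham replicate 1. The part of the difference of hepatectomy replicate 1 in the Btg2 values was not tested. Of 6 neutrophil markers 4 lay under the control level in hepatectomy replicate 1 and were not tested. The other 2, S100a8 and S100a9, named after their values were seen, rose (adjusted p = 0.00636 and 0.0015) and were highest there, S100a8 with 4173 and 1204 after partial hepatectomy and 177 and 110 after the sham operation, and S100a9 with 5649 and 2316 after partial hepatectomy and 254 and 236 after the sham operation. The other marker lists were mixed, and are given by the tested markers whose groups did not overlap. Among all tested genes, 28.1% were higher after partial hepatectomy in this way and 23.2% lower. Of 7 stellate cell and fibroblast markers 5 were higher after partial hepatectomy and 1 lower, of 6 Kupffer cell and macrophage markers 3 were higher and 2 lower, and of 4 cholangiocyte markers 3 were higher. Of 6 lymphocyte markers 5 were lower, of 6 endothelial markers 4 were lower and 1 higher, and the single tested erythroid marker was lower. Of these, 4 stellate cell and fibroblast markers and 1 Kupffer cell and macrophage marker (Marco, named after its value was seen) rose by the test. Their part in the results was not tested.

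The 3 genes below, outside the list, followed the brighter Btg2 probe set most closely, by the Euclidean distance between mean-centred log2 values over the 4 arrays, among all tested genes. They were Rgcc, a cell cycle regulator first described as a complement response gene, at a distance of 0.131, Plaur, the urokinase receptor, at 0.1996 and Cxcl1, a neutrophil chemokine, at 0.217. Cxcl1 had signals of 2666 and 1017 after partial hepatectomy, against 703 and 436 after the sham operation. Because the 3 were picked by this closeness, sharing the highest array of Btg2, hepatectomy replicate 1, follows from the choice. None of the 3 passed (limma, adjusted p = 0.177, 0.185 and 0.1). With 4 arrays, such closeness describes these libraries only.

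**Figure D2:**
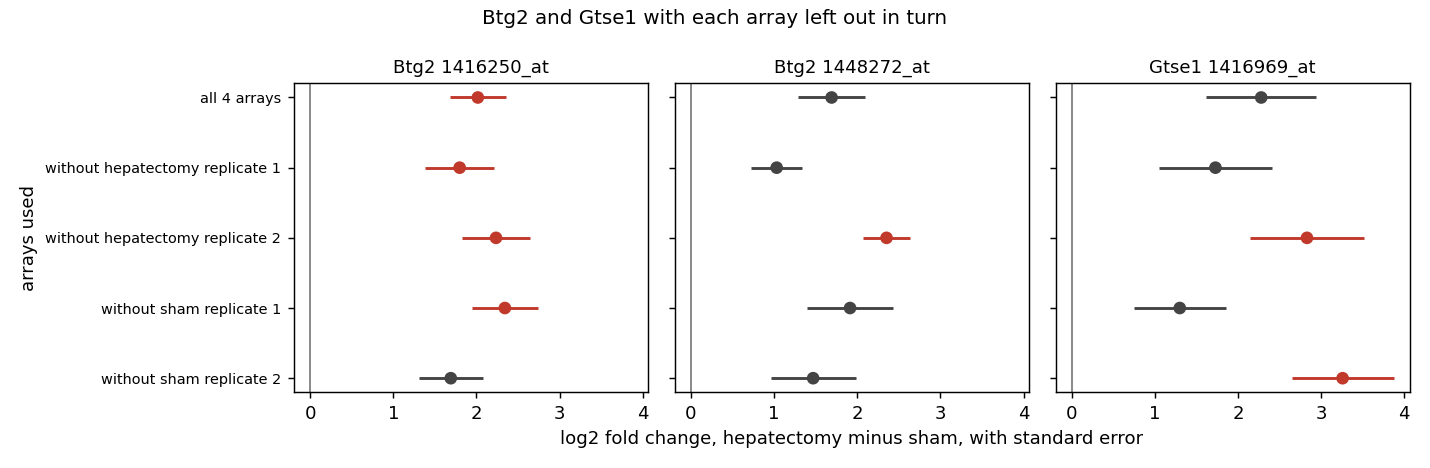
Log2 fold change, hepatectomy minus sham, with its standard error, for both Btg2 probe sets and Gtse1 with all 4 arrays and with each array left out in turn; red marks an adjusted p at or below 0.05. All values lie above 0, between 1.03 and 3.26. A fit with an array left out has a single array in that group, so its color takes no spread from there.

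Gtse1 encodes a microtubule-associated protein made in G2 and mitosis, which binds p53 and moves it out of the nucleus. Its probe set 1416969_at had signals of 164 and 71.7 after partial hepatectomy, against 3.72 and 39.1 after the sham operation. Both hepatectomy arrays were above both sham arrays, while the sham arrays differed from each other by a log2 difference of 1.96, and 1 of them lay under the control level of 20.4. The log2 fold change was 2.28 ± 0.66 (SE; limma, adjusted p = 0.123) and did not pass; its 95% interval ran from 1.69-fold to 13.97-fold. Without sham replicate 1, the lowest array, it was 1.30, and without sham replicate 2 it was 3.26. Without hepatectomy replicate 2 it was 2.83, and without hepatectomy replicate 1 it was 1.73.

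Other genes of the same cell cycle phases were measured as a list. Of 30 tested G2 and M phase genes 28 rose (25 called without hepatectomy replicate 1), beside 4.67% of all genes called, and none fell. The list had a median log2 fold change of 3.29. Both sham arrays lay under the control level for 8 of its genes, and with those at their lower bounds the median was 3.22. Birc5, or survivin, which guides the kinase Aurora B, rose by 3.71 ± 0.18 (SE; adjusted p = 0.000224), and Cdca3, a trigger of mitotic entry, rose by 3.57 ± 0.24 (adjusted p = 0.000576). Prc1, a cytokinesis factor that crosslinks spindle microtubules, rose by 4.62 ± 0.28 (adjusted p = 0.000547). The value of Gtse1 lay below the median of these genes, and the difference between Gtse1 and them was not tested.

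Of the genes that feed back on p53, Mdm2 was measured by 3 probe sets. Probe set 1423605_a_at had signals of 2278 and 2178 after partial hepatectomy, against 1960.45 and 1701 after the sham operation. The hepatectomy arrays were both higher, but by little: the log2 fold change was 0.29 ± 0.15 (SE; limma, adjusted p = 0.412), with an interval from 0.954-fold to 1.56-fold. Probe set 1427718_a_at had signals of 140.5 and 104, against 112 and 162, with overlapping groups, and 1457929_at had 23.5 and 7.20, against 4.63 and 10.03, of which 3 values lay under the control level. The 95% intervals of the tested Mdm2 probe sets ended at 1.56-fold for the brighter and at 1.498-fold for the dimmer.

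Ccng1 encodes cyclin G1, which brings the phosphatase PP2A to Mdm2 and, despite its name, does not drive the cell cycle like the other cyclins. Its probe set 1420827_a_at had signals of 2227 and 2130.2 after partial hepatectomy, against 2199 and 2487 after the sham operation. The groups overlapped, and the log2 fold change was -0.10 ± 0.15 (SE; limma, adjusted p = 0.801), with an interval from 0.736-fold to 1.18-fold. Probe set 1450016_at had signals of 499 and 490.0, against 543 and 597, lower in both hepatectomy arrays without passing (adjusted p = 0.694). Probe set 1450017_at had signals of 352 and 222, against 307 and 251, and its log2 fold change of 0.01 turned to -0.07 after median centring and to -0.31 without hepatectomy replicate 1.

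Trp53inp1 encodes a protein that promotes phosphorylation of p53 and also takes part in autophagy. Its probe set 1416926_at had signals of 3864 and 2957 after partial hepatectomy, against 4297 and 3979 after the sham operation, and 1416927_at had 208 and 116, against 224 and 267. Both hepatectomy arrays were lower than both sham arrays in each probe set, the opposite side from Btg2. The log2 fold changes were -0.29 ± 0.16 and -0.62 ± 0.32 (SE; limma, adjusted p = 0.426 and 0.391), and neither passed. In both, hepatectomy replicate 2 was the lowest array; without it the values were -0.10 and -0.23, and without replicate 1 they were -0.48 and -1.02, also without passing. Of the 14 tested member probe sets, 6 had both hepatectomy arrays above both sham arrays, beside 24.4% of all probe sets, and 3 had both below, beside 23.3%.

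Of the members that limit stress or favour cell death, Sesn2 encodes sestrin 2, a leucine sensor that holds back mTORC1 and supports antioxidant defence. Probe set 1451599_at had signals of 146 and 148 after partial hepatectomy, against 113 and 160.0 after the sham operation, and 1425139_at had 76.4 and 39.2, against 58.9 and 98.4. The groups overlapped in both, with log2 fold changes of 0.12 ± 0.29 and -0.42 ± 0.42 (SE; limma, adjusted p = 0.890 and 0.697). Sesn2 is also known as a target of ATF4, the transcription factor of the integrated stress response. Of 21 tested genes of that response, 6 rose, beside 4.67% of all genes called, and none fell; 2 were called without sham replicate 1 and 7 without hepatectomy replicate 1. Psat1, of serine synthesis, rose by 2.85 ± 0.28 (adjusted p = 0.00175), Asns, asparagine synthetase, by 1.97 ± 0.32 (adjusted p = 0.0175) and Nupr1, a stress-inducible chromatin protein, by 1.97 ± 0.33 (adjusted p = 0.018). Without sham replicate 1, Asns stood at 1.398 and Nupr1 at 1.71 (adjusted p = 0.125 and 0.129), and neither passed. Fgf21, a stress hormone of the liver, was below 20.4, the control level, on each sham array, and was at least 10.2-fold higher after partial hepatectomy (adjusted p = 0.0155), with signals of 374 and 115 there. The bound was at least 5.66-fold without hepatectomy replicate 1, where the adjusted p was 0.0106, and at least 18.3-fold without replicate 2. The call was lost without sham replicate 2 (adjusted p = 0.0737). Across the ATF4 list the median stood at 0.14, so the 6 that rose were a minority. Both hepatectomy arrays lay above both sham arrays for 9 of the 21 and below for 5. Over all genes these shares were 28.1% and 23.2%.

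Phlda3 encodes a small protein of a single pleckstrin homology domain that competes with the kinase Akt for membrane lipids. It had signals of 87.6 and 50.3 after partial hepatectomy, against 46.6 and 33.1 after the sham operation. Both hepatectomy arrays were higher, yet the lower of them was close to the higher sham array. The log2 fold change was 0.65 ± 0.40 (SE; limma, adjusted p = 0.473), and its interval, from 0.833-fold to 2.96-fold, was wide. Without hepatectomy replicate 1 the value was 0.30. Zmat3 encodes a zinc finger protein that binds RNA and takes part in splicing. It had signals of 662 and 679.9 after partial hepatectomy, against 541 and 616 after the sham operation. Both hepatectomy arrays were higher and close to each other, with a log2 fold change of 0.21 ± 0.19 (SE; limma, adjusted p = 0.662) and an interval from 0.850-fold to 1.58-fold.

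**Figure D3:**
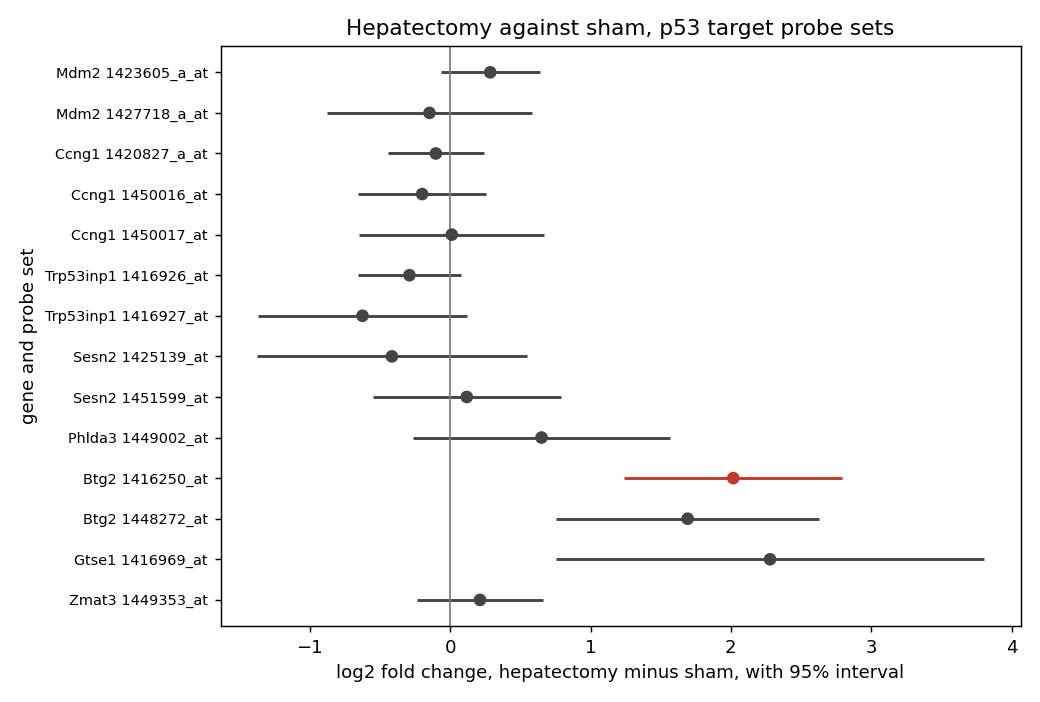
Log2 fold change, hepatectomy minus sham, of the 14 tested member probe sets with unadjusted 95% intervals; red marks the probe set with an adjusted p at or below 0.05. The intervals of both Btg2 probe sets and of Gtse1 lie above 0, and those of the other 11 include 0.

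By gene, 5 members had both hepatectomy arrays above both sham arrays, beside 28.1% of all genes, and 1 had both below, beside 23.2% (51.3% in either direction). Over the 8 member genes, 6 log2 fold changes were above 0 and 2 below, with a median of 0.25, beside 0.02 over all 12560 genes, of which 52.9% were above 0. The median size of the change, regardless of sign, was 0.29 in the members and 0.25 over all genes. The members were chosen by name, and no test was made over them as a list.

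Cdkn1a, the p21 gene left out of the members, had signals of 998 and 646 after partial hepatectomy, against 83.7 and 92.9 after the sham operation (log2 fold change 3.07 ± 0.28, SE; limma, adjusted p = 0.00138). Without hepatectomy replicate 1 it was 2.76. Of 44 tested p53 targets outside the members, Cdkn1a included, 2 rose and 1 fell, 6.82% beside 4.67% of all genes called; 8 were called without hepatectomy replicate 2 and 4 without replicate 1. Their median log2 fold change was 0.05. Ckap2, a microtubule-associated protein of mitosis, rose by 2.65 ± 0.35 (adjusted p = 0.00636), with signals of 237 and 158 after partial hepatectomy and 25.4 and 22.1 after the sham operation. Dcxr, a reductase of the uronate cycle, fell by 0.91 on the log2 scale (SE 0.15, adjusted p = 0.018; adjusted p = 0.144 without sham replicate 1), with signals of 2406 and 2504 after partial hepatectomy and 5141 and 4134 after the sham operation. Fas, the death receptor, named after its value was seen, had signals of 1357 and 1431 after partial hepatectomy and 855 and 806 after the sham operation, and did not pass (adjusted p = 0.0577). Slc19a2, named likewise, lay on the other side without passing (log2 fold change -0.56, limma, adjusted p = 0.0692). Of the 44, 14 had both hepatectomy arrays above both sham arrays and 11 had both below. Over all genes these shares were 28.1% and 23.2%.

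Of 21 tested genes that act on p53 or belong to its family, 1 rose and none fell, 4.76% beside 4.67% of all genes called, with a median of 0.02. It was Chek1, the kinase of the replication checkpoint, which also belongs to the S phase programme, with signals of 774 and 1126 after partial hepatectomy and 50.4 and 47.1 after the sham operation (4.04 ± 0.27, SE; limma, adjusted p = 0.000657). Trp53, the p53 gene itself, was not analysed here. Many genes of the DNA damage response and repair act at replication forks as well. By the test, 8 of 25 such genes rose (32%, beside 4.67% of all genes called) and none fell. Their median was 0.68, beside 0.02 over all genes. The 4 with the smallest adjusted p were Lig1, DNA ligase I (2.92 ± 0.24), Brca1, of homologous recombination (2.92 ± 0.25), Clspn, claspin (3.64 ± 0.36), and Topbp1, an activator of the kinase ATR (2.15 ± 0.21), with adjusted p between 0.000905 and 0.0019.

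Of 15 tested family relatives of the members, none rose and 1 fell, 6.67% beside 4.67% of all genes called, with a median of -0.01. Phlda1, a relative of Phlda3, had signals of 3007 and 3574 after partial hepatectomy, against 7988 and 6317 after the sham operation, and fell by 1.11 on the log2 scale (SE 0.16; limma, adjusted p = 0.0094; adjusted p = 0.0623 without sham replicate 1). The closest relatives of Btg2, named after their values were seen, had log2 fold changes of 0.03 ± 0.19 for Btg1, -0.19 ± 0.14 for Tob1 and -0.25 ± 0.14 for Tob2 (SE), without passing; their difference from Btg2 was not tested. Mdm4, the partner of Mdm2, stood at -0.06 ± 0.21, Ccng2 at 0.00 ± 0.24 and the sestrins Sesn1 and Sesn3 at -0.61 ± 0.21 and -0.22 ± 0.22, again without passing. These genes, too, were named after their values were seen, and some stand in more than 1 list. Of 17 tested genes of the Bcl-2 family, which decide on death through the mitochondria, none was called by limma and 4 had an unadjusted p under 0.05, beside 19.9% of all genes, with a median of 0.00; 1 was called without hepatectomy replicate 2.

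**Figure D4:**
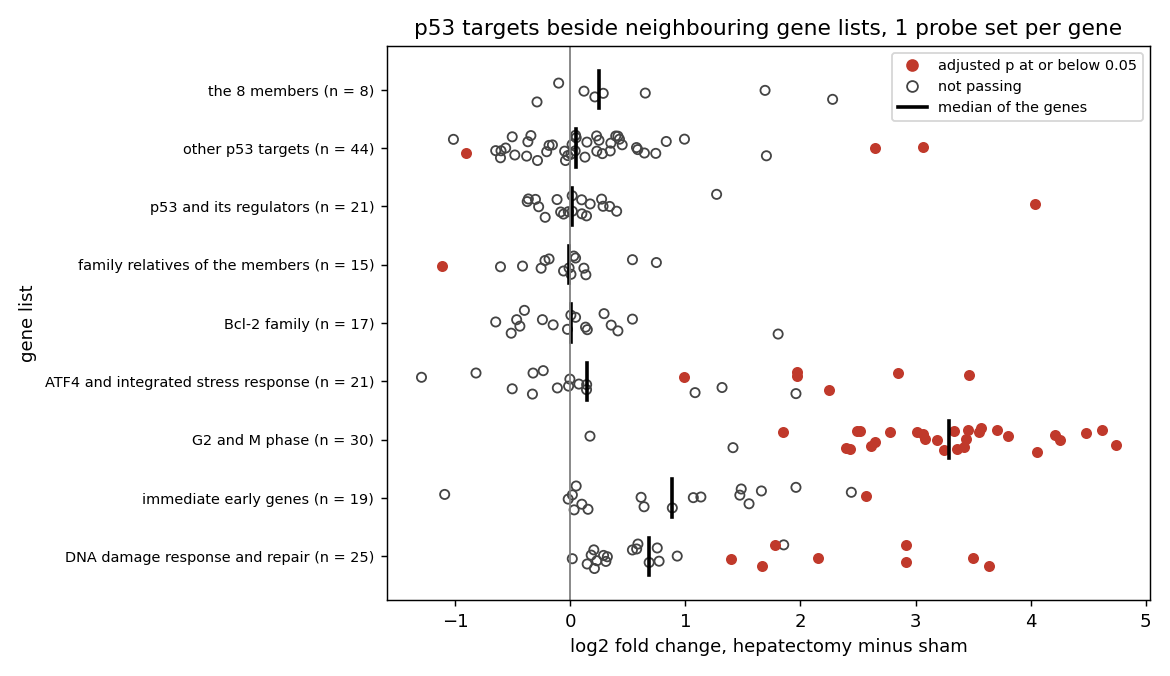
Log2 fold change, hepatectomy minus sham, of each tested gene by list, 1 probe set per gene; filled red points passed at an adjusted p of 0.05, open points did not, and black bars are medians. The members and the other p53 targets centre near 0 (medians 0.25 and 0.05), while the G2 and M phase genes centre at 3.29.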

How the data were processed

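The 4 arrays were Affymetrix expression arrays with biotin-labelled RNA. The authors deposited an intensity for each probe set on each array, not on a log scale. The submitters' processing notes name GCOS 1.4; no settings, detection calls or scan times were found there, and batches were not analysed here. With 2% trimmed at each end, the mean signal was 500.0 on every array. The median signal was 57.5 and 46.4 on hepatectomy replicates 1 and 2, and 48.7 and 47.6 on sham replicates 1 and 2. Of 45101 probe sets, 64 controls were left out; 34945 of the rest had 1 symbol in the platform annotation, 932 had more than 1 and 9160 had none.

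Signals were turned to log2 after adding 8.57, the 20th percentile of all values, which understates changes of dim genes. A filter on the average log2 value, at the 40th percentile (5.09), kept 27022 probe sets. Groups were compared with lmFit and eBayes with a mean-variance trend (limma 3.58.1, R 4.3.3), two-sided, with Benjamini-Hochberg adjustment over all 27022 probe sets; there were 2 residual and 6.02 prior degrees of freedom. With 2 arrays against 2, an exact permutation test of a single probe set cannot go below p = 0.333. Among a gene's tested 1-symbol probe sets, the one with the highest mean stood for it. The control level of 20.4 was the maximum over 27 control probe sets for Bacillus subtilis genes; folds against 2 sham arrays under it are lower bounds. On simulated data for this comparison (27022 probe sets, 200 changed), 153 were called, 12 of them falsely. Changes of log2 size 1, 2, 3 and 4 were recovered in 20%, 68%, 94% and 100% of cases. The simulated noise was normal and independent between arrays, with variances drawn from the fit. No simulated array stood apart as hepatectomy replicate 1 did, so these rates do not cover that feature.

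The members, the 8 gene lists and the 11 cell type marker lists were chosen with earlier results of these data known. Named genes were all members, Cdkn1a and Trp53, for each list the called genes ranked first by adjusted p (at most 4), and the 3 genes nearest to the member with the smallest adjusted p; others are marked. Hmmr, a G2 and M phase gene that this rule also names, has only a bound. It lay under the control level on both sham arrays and was at least 25.5-fold higher after partial hepatectomy. Alternatives were the log2 offset, the filter, the trend, robust eBayes, median centring, quantile normalization and a replicate block. Further ones were each array left out, averaging of each gene's probe sets and the omission of probe sets ending in _x_at or _s_at. With an array left out, a single array stays in its group. The p-values and calls of those fits take no spread from that group and are not replicated support.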

Additional observations from a re-analysis of the deposited data

How the results depend on the processing

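The precision is set by 2 arrays per group. The call of Btg2 probe set 1416250_at was lost without the filter (2.02, adjusted p = 0.0899), without the trend (adjusted p = 0.0853) and without sham replicate 2; over the other 10 alternatives run it was called. The brighter Btg2 probe set and Gtse1 passed after median centring (1.61 and 2.19) and in the fit with a replicate block (1.69 and 2.28). The other 11 tested member probe sets passed under none of the alternatives run. Without the filter, 308 probe sets and 218 genes were called, 0 member probe sets, 1 other p53 target, 1 gene of the ATF4 list and 0 relatives of the members. Without the trend the counts were 258 probe sets, 173 genes, 0 member probe sets, 1 of the ATF4 list and 0 relatives. Median centring gave 3 member probe sets, 2 member genes, 1 Bcl-2 family gene and 6 immediate early genes, and averaging the probe sets of each gene gave 1 member gene, 1 Bcl-2 family gene and 3 of the ATF4 list. Robust eBayes gave 5 other p53 targets, 3 immediate early genes and 1 Bcl-2 family gene; an offset of 1 and quantile normalization each gave 1 Bcl-2 family gene. At an unadjusted p of 0.05, 4495 probe sets and 3 member probe sets passed. Of the genes named from the lists, Ckap2, Dcxr, Phlda1, Fgf21, Asns and Nupr1 lost their calls without the filter (adjusted p between 0.0532 and 0.095), all of these but Ckap2 lost theirs without the trend (0.108 to 0.169), and Asns and Nupr1 lost theirs when probe sets were averaged (0.0568 and 0.0911). The cause of these shifts was not tested.

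The replicate numbers are shared by both groups, but the labels do not say that they mark a shared day or litter. Same-numbered arrays deviated from their group means with a correlation of 0.10 over the tested probe sets. With a replicate block, which leaves 1 fewer degree of freedom, 1943 probe sets, 1189 genes, 3 member probe sets (both Btg2 and Gtse1), 2 member genes, 7 other p53 targets, 8 immediate early genes, 2 p53 regulators and 1 Bcl-2 family gene were called.

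With each array left out in turn, calls ranged from 341 to 2012 probe sets, 232 to 1250 genes, 1 to 3 member probe sets, 0 to 2 member genes, 2 to 8 other p53 targets, 2 to 7 of the ATF4 list, 1 to 12 immediate early genes, 0 to 1 Bcl-2 family genes and 0 to 1 relatives; the highest counts of probe sets, genes, member probe sets, other p53 targets and immediate early genes came without hepatectomy replicate 2. Some values near 0 changed sign: Ccng1 1450017_at stood at -0.075 after median centring, -0.085 after quantile normalization, and between -0.31 and 0.33 with an array left out; Mdm2 1427718_a_at between -0.40 and 0.10, Sesn2 1425139_at between -0.83 and 0.00047 and Sesn2 1451599_at between -0.12 and 0.35 with an array left out. The mean of both Sesn2 probe sets was -0.15.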
